A study of Homo sapiens with 6 samples.

Results

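The 10 genes examined in PANC-1 cells belong to the TGF-beta pathway and are the ligand genes TGFB1, TGFB2 and INHBA, the receptor genes TGFBR1 and TGFBR3, the receptor-regulated SMADs SMAD2 and SMAD3, the inhibitory SMADs SMAD6 and SMAD7, and the corepressor SKIL. They were chosen by name, with earlier results of these data known, and all 10 of them were found by Ensembl identifier among the 30735 genes listed. PANC-1 is an established line from a human pancreatic ductal adenocarcinoma, grown here in DMEM with fetal bovine serum and transfected with Lipofectamine 3000 in medium without serum. RNA was sequenced from 3 samples given CD73 siRNA and from 3 given negative control siRNA. The study describes these as separate knockdown experiments in a single line, and the comparison asks which genes lie downstream of CD73, a surface enzyme encoded by NT5E.

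TGF-beta ligands are secreted in a latent form and, once released, bring together a type II and a type I receptor (TGFBR2 and TGFBR1). The type I receptor phosphorylates SMAD2 and SMAD3, which enter the nucleus with SMAD4 and regulate genes such as SMAD7. SMAD6, SMAD7 and SKIL act as brakes, and in pancreatic ductal cancer the pathway is known both for restraining growth and for driving invasion. PANC-1 is known to keep an intact SMAD4 and to respond to TGF-beta.

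Of the 10 genes, SMAD3 was the most abundant per length and the one in which the groups did not overlap. It was lower in every CD73 knockdown sample than in every control, at 84.0% of the control mean, and groups without overlap were found in 18.4% of all genes tested (8.07% lower after CD73 siRNA). TGFB2 was at 79.5% of the control mean and lower within each replicate number, a direction shared by all 3 numbers in 24.5% of all genes, while TGFB1 was at 111% and higher within each, as were 27% of all genes. None of the 9 genes that could be tested passed an unadjusted p below 0.01 in limma, the threshold of the study, where 3.13% of the 12527 genes tested did. Of 60 wider pathway genes, 4 were called at that limit, all lower, against 3.13% of all genes called and 1.31% called lower. Among them were SMURF2, a ubiquitin ligase for SMADs and receptors, and GDF15 (limma, adjusted p = 0.303 for both). The wider list was also written with earlier results of these data known, so its count is no test of the pathway.

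The values are RPKM (reads normalised to exon length and to the library total), and 1 RPKM in at least 3 samples was needed for the test. Library totals recovered from the values were 15009113 to 16836207 reads. NT5E was at 3.36, 6.85 and 8.22 RPKM in CD73 knockdown samples 1, 2 and 3 and at 13.96, 13.87 and 17.14 RPKM in controls 1, 2 and 3, so the knockdown was seen in all 3. NT5E was called at an unadjusted p below 0.01 in limma (log2 fold change -1.23), with an adjusted p = 0.303. The housekeeping gene GAPDH stood at 99.2% of its control mean. The epithelial keratin genes KRT8 and KRT18 and the mesenchymal VIM were expressed, at 36.3 RPKM or more for KRT18 and 182.9 RPKM or more for VIM. Of the other ductal keratin genes examined, KRT19 was low, at 3.59 to 5.39 RPKM, and KRT7 had only 1 to 7 reads per sample. PTPRC, PECAM1 and INS, which mark leukocytes, endothelium and beta cells, had at most 3 reads in any sample. KRT8 fell to 39.2% and KRT18 to 61.6% of the control mean (both called at an unadjusted p below 0.01 in limma, adjusted p = 0.303 each). KRT19 was at 79.2% with overlapping groups and was not called (adjusted p = 0.458 in limma), and KRT7 failed the filter. The part of these shifts in the results on TGF-beta genes was not tested.

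SMAD proteins bind short DNA elements, of which the palindrome GTCTAGAC is the classical form and CAGAC the core. The 250 bases before and 50 after each RefSeq gene start (GRCh38.p14) were searched on both strands. The palindrome was present in 1 of the 24 start windows of the 10 genes and in 0.202% of all 35116 windows. The core (CAGAC, or GTCTG on the other strand) was present in 12 of those 24 windows, which belong to 6 of the 10 genes, and in 45.3% of all windows, and the palindrome itself does not contain it. The stretches are shown for SMAD6, which holds the palindrome, and for SMAD3 and TGFB2, the 2 genes with the lowest p. Where a window held several matches, the one nearest its 3′ end is shown. Capitals mark the element, and all 3 genes are on the forward strand.
SMAD6: gccgccaaagtGTCTAGACtggcatatgat
SMAD3: ttgcatgaaacaCAGACtgggagcgggcgg
TGFB2: ctttgttgaaggCAGACacgtggttcagag
The SMAD6 stretch is chr15:66702213-66702242, and its element begins 12 bases before the start. The SMAD3 stretch is chr15:67065596-67065625, with the element from base 7 of the transcript, and the TGFB2 stretch is chr1:218345271-218345300, with the element 53 bases before the start. These matches describe letters only, and binding was not measured.

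The 10 genes differed widely in level. Averaged over the 6 samples, SMAD3 stood first at 42.7 RPKM, and its lowest sample (35.2 RPKM) lay above the highest sample of any other of the 10. TGFB1 (12.9 RPKM), TGFB2 (11.8 RPKM) and SKIL (10.6 RPKM) followed, with overlapping ranges. SMAD7 (6.65 RPKM) and TGFBR1 (6.14 RPKM) overlapped each other. Through control 1 alone (9.93 RPKM), SMAD7 also overlapped SKIL and TGFB2. SMAD2 (3.28 RPKM) stood apart from its neighbours, SMAD6 (1.58 RPKM) and TGFBR3 (1.29 RPKM) overlapped, and INHBA was last. The level of SMAD2 is per kb of a very long gene model. Its merged exons span 36.4 kb in GENCODE release 29, against 9.11 kb for SMAD3, so that 1720 to 2086 reads per sample gave only 3.0 to 3.57 RPKM.

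**Figure D1:**
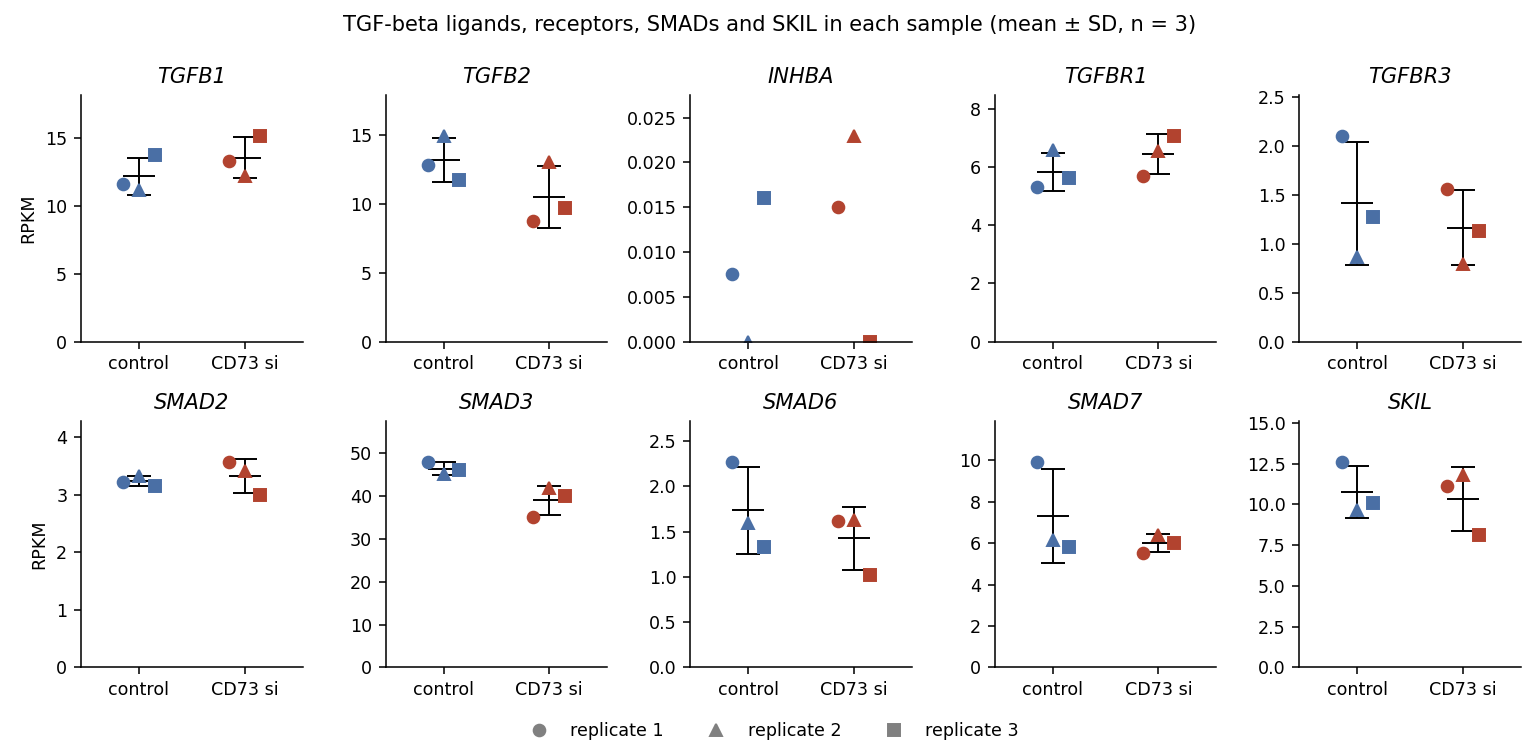
RPKM of the 10 genes in each sample, one panel per gene with its own axis from 0; blue marks are negative control, red marks CD73 siRNA, the marker shape gives the replicate number, and black bars are the mean ± SD (n = 3; none drawn for INHBA, which has 0 to 3 reads per sample). The 2 groups are apart for SMAD3 only, and control replicate 1 is the highest sample for SMAD3, SMAD6, SMAD7, SKIL and TGFBR3.

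Among the ligands, TGFB1 (ENSG00000105329, chromosome 19, 41301587 to 41353911, reverse strand), the main isoform in most tumours, was at 13.31, 12.22 and 15.17 RPKM in CD73 knockdown samples 1, 2 and 3. In controls 1, 2 and 3 it was at 11.65, 11.20 and 13.74 RPKM. The groups overlapped, with means of 13.57 ± 1.49 and 12.20 ± 1.36 RPKM (SD, n = 3 each). Sample 3 was the highest in both groups, and each knockdown sample lay above the control of its number, by 0.18, 0.12 and 0.13 on log2(RPKM + 1), the scale of all differences here. The log2 fold change was 0.14 (95% interval -0.14 to 0.42, adjusted p = 0.664 in limma), with 0.065 without CD73 siRNA replicate 3, 0.088 without control 2 and 0.23 without control 3.

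TGFB2 (ENSG00000092969, chromosome 1, 218346235 to 218444619, forward strand), the isoform that depends on TGFBR3 to bind its receptors well, went the other way. It was at 8.71, 12.99 and 9.65 RPKM in CD73 knockdown samples 1, 2 and 3 and at 12.81, 14.90 and 11.74 RPKM in the controls. Sample 2 was the highest in both groups, so the groups overlapped, but each knockdown sample lay below its control, by 0.51, 0.18 and 0.26. The means were 10.45 ± 2.25 and 13.15 ± 1.61 RPKM (SD, n = 3 each). In limma this was a log2 fold change of -0.32 (SE 0.16, 95% interval -0.68 to 0.046, adjusted p = 0.457), and it was -0.21 without CD73 siRNA replicate 1. The interval narrowed to -0.54 to -0.092 when limma took the replicate number as a block (adjusted p = 0.140). The noncoding gene TGFB2-OT1 shares 26.6% of the TGFB2 exon bases on the same strand. TGFB2-OT1 is not among the genes listed, and TGFB2 gave whole reads at its full exon length of 5151 bases. The TGFB2 values may therefore include reads from TGFB2-OT1. Smaller overlaps on the opposite strand touch TGFB1 (HNRNPUL1, 6.64% of its exon bases) and SMAD3 (AC087482.1, 182 bases).

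Set side by side within each sample, TGFB2 was present at 0.654, 1.06 and 0.636 times the RPKM of TGFB1 in CD73 knockdown samples 1, 2 and 3. In controls 1, 2 and 3 the ratio was 1.10, 1.33 and 0.854. It was lower in the knockdown sample of every number, although knockdown sample 2 lay above control 3. This ratio was chosen after the values were seen and was not tested.

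INHBA (ENSG00000122641, chromosome 7, 41667168 to 41705834, reverse strand), which encodes the subunit of activin A, was at the limit of detection. It had 2, 3 and 0 reads in the CD73 knockdown samples and 1, 0 and 2 in the controls, at most 0.023 RPKM. It failed the filter and was not tested, and a difference was not detectable at this depth. Its relative INHBB, the subunit of activin B, was at 10.1 to 24.1 RPKM.

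The receptor genes did not separate the groups. TGFBR1 (ENSG00000106799, chromosome 9, 99104038 to 99154192, forward strand), the signalling type I receptor, was at 5.70, 6.56 and 7.06 RPKM after CD73 siRNA and at 5.31, 6.57 and 5.64 RPKM in the controls. Only sample 3 stood clearly above its control, and in sample 2 the values were nearly equal. Limma put the log2 fold change at 0.12 (95% interval -0.16 to 0.40, adjusted p = 0.712). It was 0.062 without CD73 siRNA replicate 3, 0.066 without control 1, and 0.20 without CD73 siRNA replicate 1 or control 2.

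TGFBR3 (ENSG00000069702, chromosome 1, 91680343 to 91906335, reverse strand), the co-receptor betaglycan, had low values. They were 1.56, 0.796 and 1.13 RPKM in CD73 knockdown samples 1, 2 and 3 and 2.10, 0.866 and 1.27 RPKM in the controls, from 109 to 293 reads. Both groups ran in the same order, with sample 1 highest and sample 2 lowest, and each knockdown sample lay below its control. In limma the log2 fold change was -0.14 (95% interval -0.65 to 0.37, adjusted p = 0.833), and it turned to 0.056 without control 1. TGFBR2, the type II receptor, had means of 11.99 ± 1.80 RPKM after CD73 siRNA and 14.38 ± 3.07 RPKM in the controls (SD, n = 3 each, adjusted p = 0.596 in limma). The groups overlapped, but TGFBR2 was lower within each replicate number, by 0.31, 0.05 and 0.34. With the number as a block, its limma interval was -0.46 to -0.013 (adjusted p = 0.199). Without the block its log2 fold change was -0.23, and -0.084 without control 1.

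**Figure D2:**
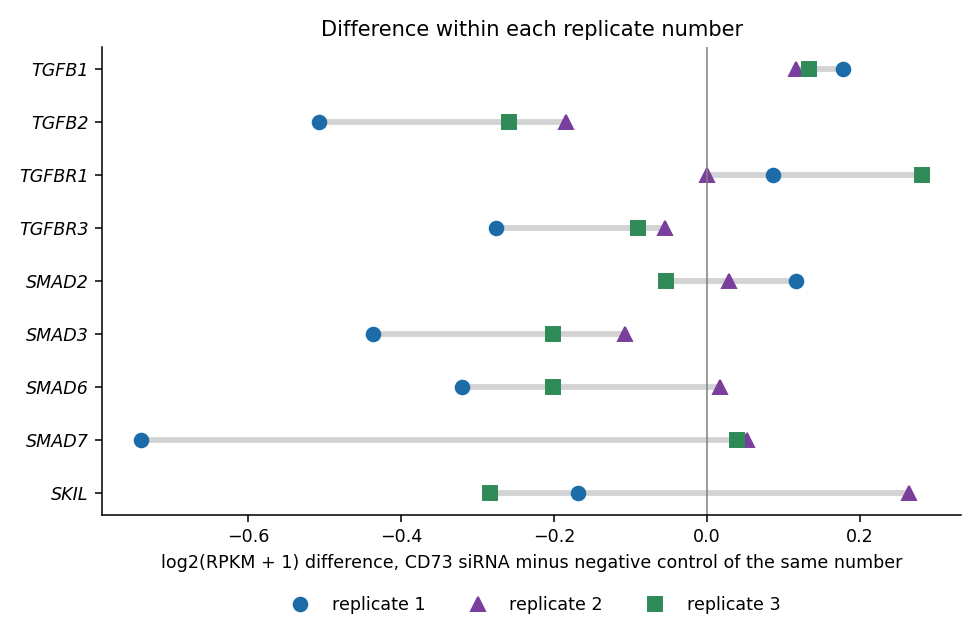
Difference in log2(RPKM + 1) between the CD73 siRNA sample and the negative control of the same number, for the 9 tested genes; the marker gives the replicate number and the grey bar spans the 3 differences. TGFB1 lies right of 0 in all 3, TGFB2, TGFBR3 and SMAD3 lie left of 0 in all 3, and the bar of SMAD7 is long because of replicate 1 (-0.74).

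SMAD3 (ENSG00000166949, chromosome 15, 67063763 to 67195195, forward strand), the DNA-binding mediator of many TGF-beta responses, was at 35.17, 41.82 and 39.95 RPKM in CD73 knockdown samples 1, 2 and 3. In controls 1, 2 and 3 it was at 47.95, 45.12 and 46.10 RPKM. The highest knockdown sample lay below the lowest control. The means were 38.98 ± 3.43 and 46.39 ± 1.44 RPKM (SD, n = 3 each). The log2 fold change was -0.25 (SE 0.10, 95% interval -0.48 to -0.018, adjusted p = 0.385 in limma). The two-sided exact permutation test gave p = 0.1 for SMAD3, the lowest that 3 samples against 3 allow, and 0.3 to 0.8 for the other 8 tested genes. With 5153 to 7009 reads per sample, SMAD3 was the deepest covered of the 10 genes. Without CD73 siRNA replicate 1, the lowest sample, the log2 fold change was -0.18.

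SMAD2 (ENSG00000175387, chromosome 18, 47808957 to 47931146, reverse strand), the other receptor-regulated SMAD, was at 3.57, 3.41 and 3.0 RPKM after CD73 siRNA. The controls had 3.21, 3.33 and 3.15 RPKM and lay inside that range. Limma gave a log2 fold change of 0.031 (95% interval -0.22 to 0.28, adjusted p = 0.936). SMAD4, the partner of both, had means of 3.38 ± 0.35 RPKM after CD73 siRNA and 3.60 ± 0.08 RPKM in the controls (SD, n = 3 each, adjusted p = 0.828 in limma). In reads, SMAD3 outnumbered SMAD2 by 2.47 to 3.34 times in the CD73 knockdown samples and by 3.40 to 3.74 times in the controls.

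Of the inhibitory SMADs, SMAD7 (ENSG00000101665, chromosome 18, 48919853 to 48952052, reverse strand), itself induced by TGF-beta and therefore a usual readout of the pathway, was at 5.54, 6.42 and 6.02 RPKM after CD73 siRNA. In the controls it was at 9.93, 6.16 and 5.83 RPKM. Control 1 stood above the other 5 samples, which all lay between 5.54 and 6.42 RPKM. The difference in limma was -0.22 (SE 0.18, 95% interval -0.64 to 0.20, adjusted p = 0.660), and without control 1 it was -0.0015.

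SMAD6 (ENSG00000137834, chromosome 15, 66702228 to 66782848, forward strand), the brake better known from BMP signalling, was at 1.62, 1.63 and 1.03 RPKM after CD73 siRNA and at 2.27, 1.60 and 1.33 RPKM in the controls. The groups overlapped and control 1 was again the highest. Its log2 fold change in limma was -0.17 (95% interval -0.58 to 0.24, adjusted p = 0.730), and -0.032 without control 1.

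SKIL (ENSG00000136603, chromosome 3, 170357678 to 170396835, forward strand), which encodes the SMAD corepressor SnoN, was at 11.09, 11.77 and 8.11 RPKM after CD73 siRNA. The controls had 12.60, 9.64 and 10.09 RPKM. Within the replicate numbers it was lower in 1 and 3 and higher in 2 (-0.17, 0.26 and -0.28). Limma put the log2 fold change at -0.063 (95% interval -0.43 to 0.30, adjusted p = 0.901), and it turned to 0.086 without CD73 siRNA replicate 3 and to 0.045 without control 1.

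Over the 9 tested genes, limma called 0 at an unadjusted p below 0.01, and 0 at an adjusted p below 0.05 (0.00798% of all genes). At an unadjusted p below 0.05 it counted 1, SMAD3, where 12.1% of all genes tested passed. Leaving out 1 sample took that count to 0 in 5 of 6 fits, and to 2 (SMAD3 and TGFB2) without CD73 siRNA replicate 2. Blocked on the replicate number, the same limits gave 0 and 2 (SMAD3 and TGFB2), against 7.57% and 23.3% of all genes, and a linear model without moderation called 0 at p below 0.01, against 1.72%. The median log2 fold change was -0.14 for the 9 genes and 0.01 for all genes tested. Direction was shared by all 3 replicate numbers in 4 of the 9 genes, 1 higher and 3 lower, and in 51.4% of all genes tested. On log2(RPKM + 1) and without the block, the 95% intervals of the 9 lay within -0.68 and 0.42. That scale shrinks the low genes, and with a pseudocount of 0.1 the log2 fold change was -0.22 (SE 0.38) for TGFBR3 and -0.26 (SE 0.28) for SMAD6.

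**Figure D3:**
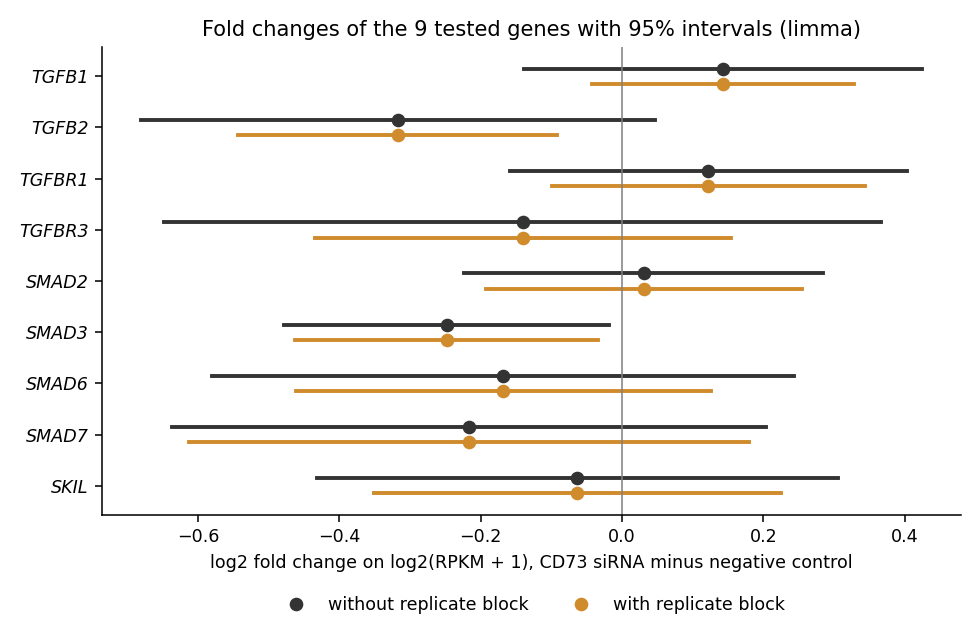
Log2 fold change of the 9 tested genes (dots) with 95% intervals from limma (bars), without the replicate block in black and with it in orange; negative values are lower after CD73 siRNA. The black interval excludes 0 for SMAD3 only, and the orange ones for SMAD3 and TGFB2.

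Another 81 genes of the pathway, from a list of 84 written by role, were compared in the same fit, and 60 of them passed the filter. The list was written with earlier results of these data known, so shares of all genes beside its counts are descriptive only. Limma called 4 of the 60, all of them lower after CD73 siRNA, at an unadjusted p below 0.01, against 1.31% of all genes called lower, and 0 at an adjusted p below 0.05. With the replicate block, 8 of the 60 were called, again all lower, against 7.57% of all genes in either direction and 3.30% lower. The median log2 fold change of the 60 was -0.072. By role, the 4 calls were 1 of 5 ligands, 1 of 20 regulators and 2 of 15 targets, with 0 of 7 latency genes, 0 of 8 receptors, 0 of 3 SMADs and 0 of 2 secreted inhibitors.

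**Figure D4:**
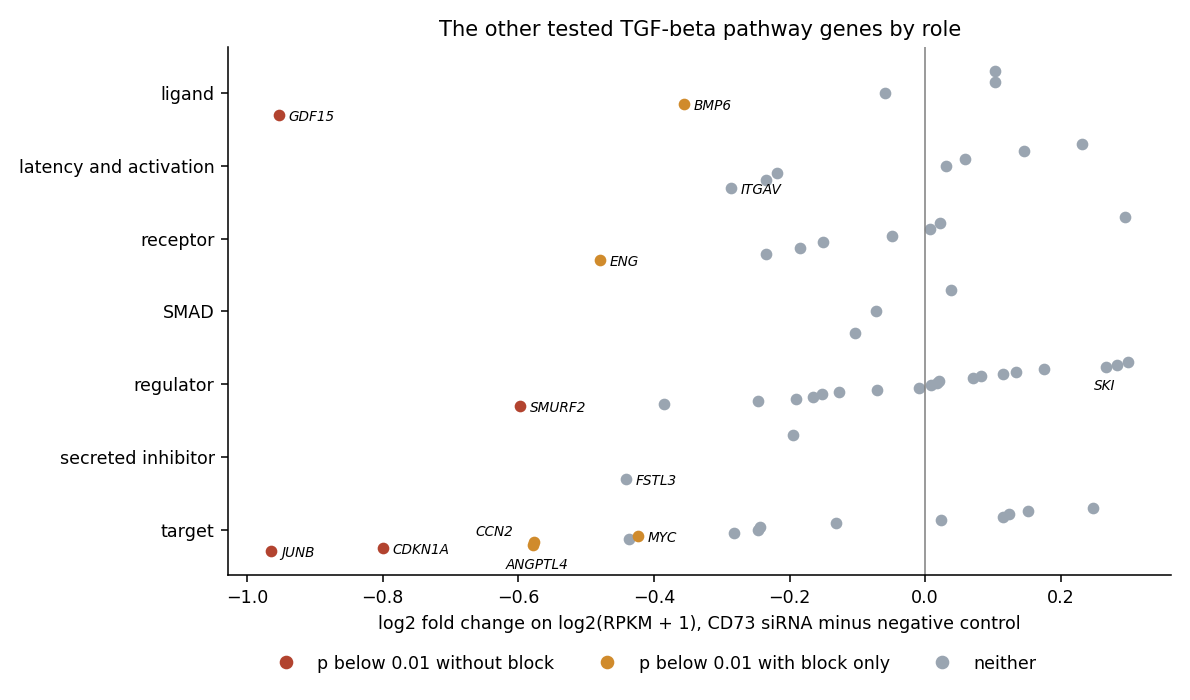
Log2 fold change of each of the 60 other tested pathway genes, grouped by role; red dots have p below 0.01 without the replicate block, orange dots with it only, grey dots with neither (limma), and negative values are lower after CD73 siRNA. The 4 red dots (GDF15, SMURF2, CDKN1A and JUNB) and all 5 orange dots lie left of 0.

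SMURF2, a ubiquitin ligase that SMAD7 brings to the receptors, was at 6.48, 8.69 and 6.94 RPKM in CD73 knockdown samples 1, 2 and 3 and at 12.08, 10.81 and 11.91 RPKM in the controls. All knockdown samples lay below all controls. The means were 7.37 ± 1.17 and 11.60 ± 0.69 RPKM (SD, n = 3 each), and limma gave -0.60 on the log2 scale (SE 0.13, adjusted p = 0.303). Leaving out any single sample kept it between -0.71 and -0.52. Its relative SMURF1 was not called.

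GDF15, a distant member of the TGF-beta family that signals through another receptor, was at 4.89, 8.07 and 6.03 RPKM after CD73 siRNA and at 16.01, 10.58 and 12.83 RPKM in the controls. It fell to 48.2% of the control mean, with the smallest gap in replicate 2, and limma gave a log2 fold change of -0.95 (SE 0.19, adjusted p = 0.303). The call was lost without moderation. TGFB3, the third TGF-beta isoform, stayed under the filter. It had 0.532, 0.634 and 0.701 RPKM after CD73 siRNA and 0.964, 0.721 and 1.10 RPKM in the controls, from 42 to 81 reads, with no overlap (exact permutation test, p = 0.1).

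The called targets were CDKN1A and JUNB. CDKN1A, the cell cycle inhibitor p21 that TGF-beta and p53 both induce, was at 8.69 ± 0.95 RPKM after CD73 siRNA and 16.16 ± 4.19 RPKM in the controls (SD, n = 3 each), and its log2 fold change in limma was -0.80 (adjusted p = 0.303). It was no longer called without CD73 siRNA replicate 1, at -0.76, or without moderation. JUNB, an immediate-early subunit of AP-1, was at 7.83, 12.78 and 10.38 RPKM after CD73 siRNA and at 33.30, 17.94 and 14.83 RPKM in the controls, so control 1 again stood highest. Its log2 fold change in limma was -0.96 (adjusted p = 0.316). At -0.64 without control 1, and in 6 other alternatives, the replicate block among them, JUNB was not called.

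CCN2, a matricellular protein induced by TGF-beta and also driven by YAP, was named after its values were seen. It was at 35.7, 43.1 and 22.9 RPKM after CD73 siRNA and at 62.7, 63.0 and 30.6 RPKM in the controls, with sample 3 the lowest in both groups. The groups overlapped, yet each knockdown sample lay below its control, by 0.79, 0.54 and 0.40. At a log2 fold change of -0.58, CCN2 was called by limma with the block (adjusted p = 0.113) and not in the unblocked fit to all samples (adjusted p = 0.489). Without the block it was -0.92, and called, once control 3 was left out, and -0.33 once CD73 siRNA replicate 3 was. The block also brought BMP6, ENG, ANGPTL4 and MYC past p below 0.01 in limma, all lower, and took JUNB out.

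**Figure D5:**
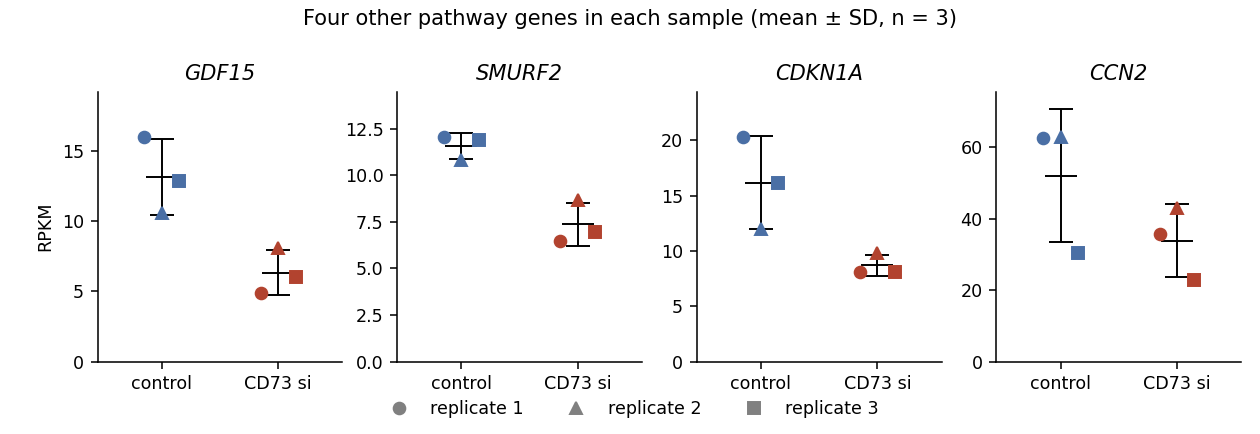
RPKM of GDF15, SMURF2, CDKN1A and CCN2 in each sample, with axes from 0; blue marks are negative control, red marks CD73 siRNA, the marker shape gives the replicate number and black bars are the mean ± SD (n = 3). The groups are apart for the first 3 genes, while CCN2 overlaps between groups and lies lower after CD73 siRNA within every number.

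The remaining 6 genes with the lowest p were not called in the unblocked fit to all samples. ANGPTL4, a secreted lipase inhibitor, had a log2 fold change of -0.58, and -0.37 without CD73 siRNA replicate 1. ENG, the co-receptor endoglin, had one of -0.48, and the integrin subunit ITGAV, which binds latent TGF-beta, one of -0.29. For MYC, a growth-promoting factor that TGF-beta represses in epithelial cells, it was -0.42, and for the activin-binding FSTL3 -0.44, or -0.27 without control 1. SKI, the paralog of SKIL, was the one of these higher after CD73 siRNA, without overlap (log2 fold change 0.27). It was at 19.35, 17.80 and 19.43 RPKM against 14.85, 15.23 and 16.45 RPKM in the controls. ANGPTL4, ENG and ITGAV, all lower, did not overlap between the groups either. The adjusted p of these 6 genes in limma lay between 0.320 and 0.385. Unblocked alternatives called ANGPTL4 (samples scaled to the same median, or without CD73 siRNA replicate 2), ENG (without CD73 siRNA replicate 3, or without control 2), MYC (without CD73 siRNA replicate 2) and SKI (no moderation).

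The genes most like SMAD3 and TGFB2 over the 6 samples were listed as a description. Among 7393 genes with a mean of at least 5 RPKM, log2 values of KHSRPP1, AHNAK and MTFR2 followed SMAD3 most closely, with Pearson's r of 0.998, 0.993 and 0.992. KHSRPP1 carries the name of a KHSRP pseudogene, whose reads may come from the parent gene. For TGFB2 they were FAF2, SGCE and UQCC4, with r of 0.997, 0.996 and 0.995. With only 6 samples, drawn from 2 groups and 3 replicate numbers, 75 genes had r above 0.95 with SMAD3 and 69 with TGFB2.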

How the data were processed

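RNA-seq of PANC-1 cells was analysed for 3 samples with CD73 siRNA and 3 with negative control, grouped and numbered by their titles. Per the labels, the submitters' processing notes name bcl2fastq, Bowtie2 2.2.3, HTSeq 0.6.0 and hg38. The authors deposited 1 value per gene and sample. The unit is not given in the sources used here and was read as RPKM from the deposited values: multiplied by the merged exon length in GENCODE release 29 (GRCh38), 95.1% to 95.2% of the genes under 1000 reads gave whole reads within 0.02. That step gave library totals and reads. The reads of SMAD7 did not come out whole, so the exon length behind its RPKM differed. Strand handling is not given in the sources used here.

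Genes reaching 1 RPKM in 3 or more samples were tested on log2(RPKM + 1) with limma 3.58.1 (R 4.3.3, trend, Benjamini-Hochberg over all genes). This scale understates changes of low genes. A call was an unadjusted p below 0.01. Exact two-sided permutation tests (scipy 1.17.1) were run beside it for all listed pathway and marker genes, and are given for the members and TGFB3. Genes whose groups did not overlap, such as GDF15, SMURF2 and NT5E, also gave the lowest possible p of 0.1 in that test. Scripts were tested on simulated data. The labels state no pairing. Deviations from the group means correlated at 0.20, 0.48 and 0.55 between samples of the same number and at -0.44 to -0.0064 between different numbers. The latter are pulled down because deviations cancel within a group. From these same expression values the number was taken to pair the samples, and a fit with it as a block was the alternative. Other alternatives were a pseudocount of 0.1, no filter, median scaling, no moderation and each sample left out.

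The members and lists were chosen with earlier results of these data known. Named were the members, NT5E, GAPDH, the 10 other pathway genes with the smallest p, and for the 2 members with the smallest p the 3 genes of highest Pearson correlation among those of mean 5 RPKM or more. TGFBR2, SMAD4, TGFB3, INHBB, CCN2 and BMP6 were added for their roles after their values were seen. GREM1, DCN, CDKN2B and PRSS1 were not analysed here. A further pathway gene is not reported here.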

Additional observations from a re-analysis of the deposited data

How the results depend on the processing

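Over the 11 alternatives, 0 of the 9 tested members were called in any fit. Of 253 results for single genes under an alternative, 227 kept their direction and their side of the threshold, 11 gained the call, 11 lost it and 4 turned direction. Leaving out 1 sample moved TGFBR3 between -0.31 and 0.056 (the latter without negative control replicate 1), SMAD2 between -0.0096 (without CD73 siRNA replicate 1) and 0.086, and SKIL between -0.16 and 0.086 (lacking CD73 siRNA replicate 3; 0.045 lacking negative control replicate 1). The replicate block, with pairing by replicate number, moved the calls among all genes from 392 to 948 and in the pathway list from 4 to 8. It changed no call of a member, and no call in the pathway list beyond these 6 (BMP6, ENG, ANGPTL4, MYC and CCN2 gained, JUNB lost). The genes most correlated with SMAD3 and TGFB2 were not followed through the alternatives. Without moderation the calls were 216 among all genes and 2 in the pathway list (1 higher, 1 lower). GDF15, CDKN1A, JUNB and NT5E lost the call in that fit, as did the keratin genes KRT8 and KRT18. Leaving out single samples gave 110 (CD73 siRNA replicate 1) to 791 (negative control replicate 2) calls among all genes and 2 (CD73 siRNA replicate 1) to 7 (CD73 siRNA replicate 2) in the pathway list. The cause was not tested. SMURF2 was called under all 11 alternatives. Depth limited INHBA, with at most 3 reads per sample.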

Other observations

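Some genes of the pathway list differed more between replicate numbers than between CD73 siRNA and negative control. BAMBI, a decoy receptor for TGF-beta and BMP, was at 2.28, 2.03 and 6.34 RPKM in CD73 knockdown samples 1, 2 and 3 and at 2.37, 1.75 and 6.54 RPKM in controls 1, 2 and 3. INHBB, the subunit of activin B, was at 24.07, 21.99 and 11.25 RPKM after CD73 siRNA and at 22.42, 20.98 and 10.09 RPKM in the controls, so it was low where BAMBI was high. PMEPA1, a feedback inhibitor that binds SMAD2 and SMAD3, was at 14.23, 21.16 and 10.96 RPKM after CD73 siRNA and at 13.87, 20.65 and 9.83 RPKM in the controls. BHLHE40, a transcription factor that TGF-beta induces, followed the same order as PMEPA1, with 27.36, 49.71 and 20.79 RPKM against 28.63, 47.18 and 19.90 RPKM.

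These 4 genes were chosen after their values were seen, as those of the list with the widest range between replicate numbers and a largest within-number difference below 0.15 on log2(RPKM + 1). The range of the means of the 3 numbers was 1.36 for BAMBI, 1.21 for BHLHE40, 1.06 for INHBB and 0.94 for PMEPA1 on that scale. The largest difference between groups within a number was 0.14 for BAMBI, INHBB and PMEPA1 and 0.07 for BHLHE40. The selection itself fixed small differences between the groups. What set the replicate numbers apart is not given in the labels and was not tested.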
